A study of Mus musculus with 12 samples.

Results

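The transcripts described here encode 9 Toll-like receptors and CD14, and they were chosen by gene symbol: Tlr1, Tlr2, Tlr3, Tlr4, Tlr6, Tlr7, Tlr8, Tlr9, Tlr13 and Cd14. All 10 symbols were present among the 24421 genes of both count tables, and all 10 were among the 12164 genes with enough counts to be tested. The measurements are bulk RNA sequencing of bone marrow-derived macrophages, which are primary macrophages grown in culture from marrow progenitors, here from male C57BL/6J mice of 8 weeks. All cells had been transfected, some with siEhd1, directed at the gene of an ATPase of endosomal recycling membranes, and the others with siControl. Both were studied unstimulated (M0, resting) and after lipopolysaccharide (M1, LPS). Each of the 4 groups had 3 libraries, and no untransfected cells were analysed. The labels do not say whether the libraries of a group came from separate animals or cultures, so the p-values reflect library-to-library variation that may be purely technical.

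Toll-like receptors are membrane proteins that bind microbial molecules through leucine-rich repeats and signal through the adaptors MyD88 and TRIF. Receptors of the plasma membrane read bacterial surface molecules: TLR4 with its co-receptor MD-2 binds LPS, and TLR2 pairs with TLR1 or TLR6 to bind lipopeptides. CD14 is a surface protein without a signalling domain of its own that hands LPS to TLR4 and MD-2. TLR3, TLR7, TLR8, TLR9 and TLR13 read nucleic acids inside endosomes, and UNC93B1 carries them there. Macrophages express receptors of both kinds, and LPS is the ligand used in these cultures.

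Library totals ranged from 18572725 to 22545272 counts, and the library most similar to each library lay in its own group. The knockdown was partial. Ehd1 stood at 53.25 ± 1.18 CPM (counts scaled to a common effective library size; SD, n = 3) in resting siControl cells and at 31.5 ± 2.35 CPM in resting siEhd1 cells, which is 59.2% of the control. After LPS the siControl level was 619.7 ± 64.5 CPM and the siEhd1 level 301.8 ± 18.2 CPM, or 48.7% of the control. All 7 macrophage markers examined were expressed, with a summed level of 19260 to 37360 CPM in a library. That sum was 23180 to 23850 CPM in resting siControl cells and 19260 to 20590 CPM in resting siEhd1 cells, so the groups did not overlap. Lyz2, the most abundant of the 7, had means of 14200 and 11300 CPM in these groups. Means were also lower with siEhd1 for Csf1r (4330 and 3740), Cd68 (1460 and 1350), Itgam (1120 and 1070), Fcgr1 (235 and 135) and Mertk (98.3 and 64.9 CPM). Adgre1 alone was higher, at 2010 and 2230 CPM. After LPS the sum was 30860 to 37360 CPM with siControl and 34080 to 35680 CPM with siEhd1, above every resting library. The part of these marker levels in the receptor results was not tested. Of the 5 B cell markers the sum was at most 1.321 CPM in any library and Pax5 was at 0 in every library. The 4 plasmacytoid dendritic cell markers summed to at most 2.467 CPM and the 5 conventional dendritic cell markers to at most 1.377 CPM. The 6 neutrophil markers in the tables summed to at most 1.145 CPM in resting and 4.696 CPM in LPS-treated libraries. The 4 T or NK cell markers summed to at most 0.04402 CPM. The 5 stromal or endothelial markers summed to at most 5.438 CPM in resting libraries and 7.665 to 20.07 CPM after LPS.

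Levels were compared between receptors only per kilobase of exon (CPM divided by the length of the gene's merged exons in kb). In resting siControl cells Cd14 was the highest, at 268.6 ± 10.7 CPM per kb (SD, n = 3), and Tlr13, a receptor for bacterial ribosomal RNA, came next at 101.3 ± 3.87 CPM per kb. Tlr8 at 86.05 ± 3.62 and Tlr7 at 81.88 ± 7.96 CPM per kb, the endosomal receptors of single-stranded RNA, overlapped between libraries and were not ordered beyond their spread. Tlr2 followed at 29.99 ± 2.02 CPM per kb. Tlr4 at 20.87 ± 0.857 and Tlr9, the receptor of unmethylated CpG DNA, at 18.15 ± 3.19 CPM per kb overlapped as well. Tlr1 stood at 12.24, Tlr6 at 5.90 and Tlr3, the receptor of double-stranded RNA, at 3.86 CPM per kb. Resting siEhd1 cells kept Cd14 and Tlr13 at the top, at 233.9 and 96.82 CPM per kb. There Tlr7 at 67.91 and Tlr8 at 64.31 CPM per kb overlapped, as did Tlr1 at 15.11 and Tlr9 at 13.74 CPM per kb.

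After LPS the order was different. With siControl, Cd14 stood at 773.5 and Tlr2 at 146.0 CPM per kb, and Tlr7, Tlr13 and Tlr8 followed at 70.5, 64.5 and 63.74 CPM per kb, each overlapping its neighbour in that order. Tlr1 reached 48.2 and Tlr4 26.53 CPM per kb. Tlr6 at 9.76 and Tlr9 at 9.34 CPM per kb overlapped, and Tlr3 was the lowest at 7.11 CPM per kb. On this scale the order of the 10 genes was the same in LPS-treated siEhd1 cells, from Cd14 at 647.2 and Tlr2 at 158.1 CPM per kb down to Tlr3 at 7.14 CPM per kb. With the longest transcript as length in place of merged exons, Tlr3 at 8.439 and Tlr9 at 8.414 CPM per kb changed places in LPS-treated siEhd1 cells, as did Tlr4 at 25.37 and Tlr2 at 24.44 CPM per kb in resting siEhd1 cells. Of the other Toll-like receptors, Tlr5, the flagellin receptor, was at 0.644 CPM in resting siControl cells and 0.195 CPM after LPS, and Tlr11 and Tlr12 had at most 6 and 2 counts in any library and were not tested.

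**Figure D1:**
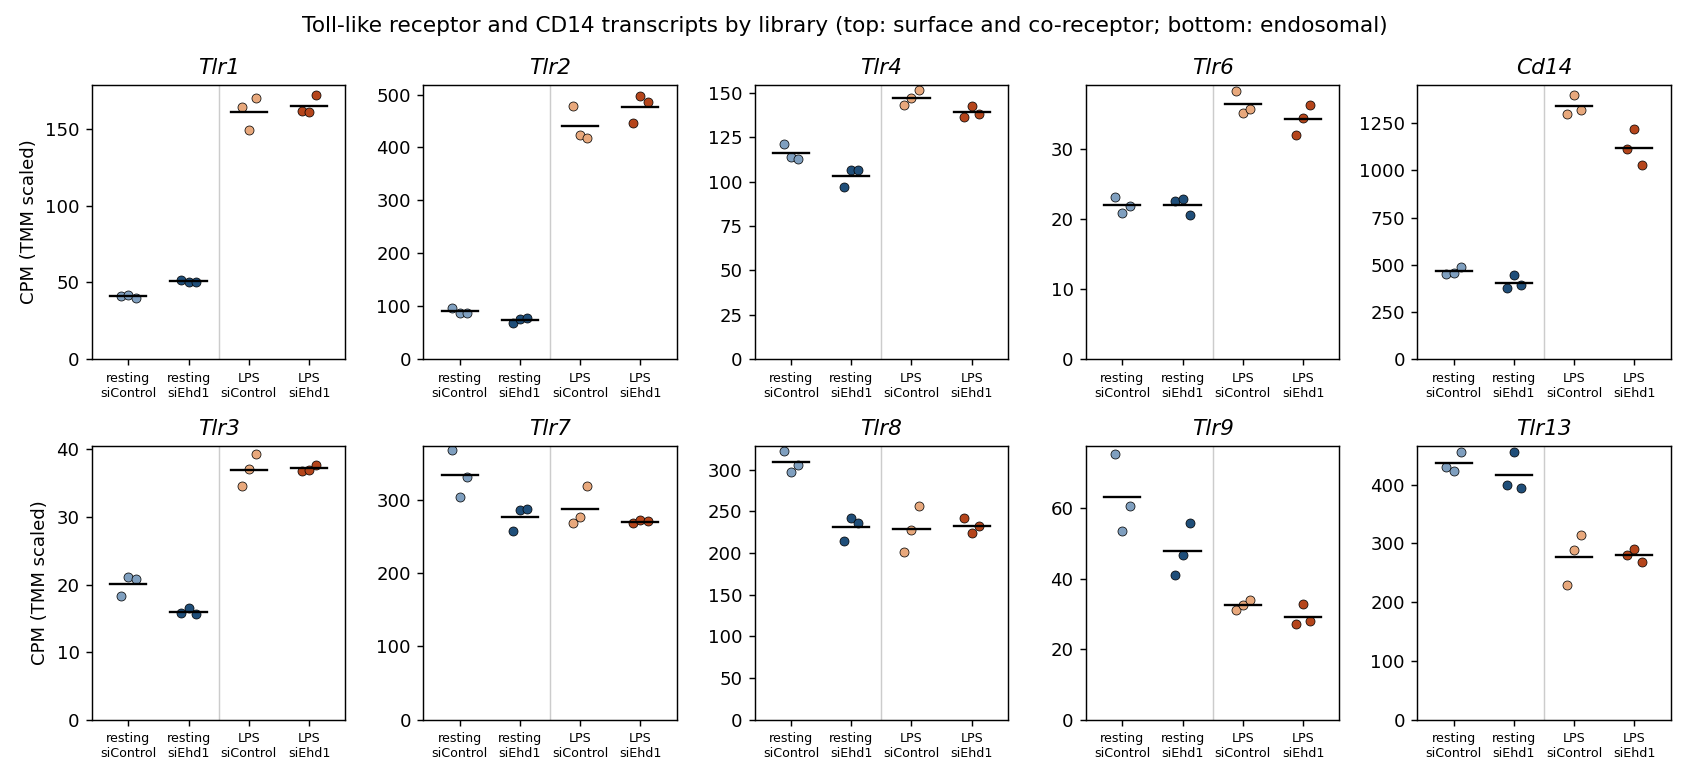
Level of each receptor transcript in each of the 12 libraries (points) with the group mean (horizontal lines), in CPM on a linear axis that starts at 0, by group. Tlr2 lies between 86.68 and 97.42 CPM in resting siControl libraries and between 418.2 and 477.9 CPM after LPS, whereas Tlr9 lies between 53.59 and 75.28 CPM and falls to between 31.02 and 33.86 CPM.

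LPS-treated and resting cells were compared first with siControl, which asks how activation changes the receptor repertoire without the knockdown. All 4 surface receptors, Cd14 and Tlr3 rose, and the other 4 endosomal receptors fell. At an adjusted p of 0.05 (edgeR quasi-likelihood test, Benjamini-Hochberg adjustment over the 12164 genes), 6 of the 10 transcripts were higher and 4 lower. In the same comparison 34.8% of all tested genes were called higher and 34.0% lower, so being called at all is common here and the size and direction carry the description. The median log2 fold change was 1.35 for the 4 surface receptors and -0.43 for the 5 endosomal receptors, against -0.01 for all tested genes. Resting and LPS-treated libraries were deposited as separate tables, and handling that differed between them cannot be told apart from LPS. In bulk RNA, fewer cells expressing a gene and less RNA per cell cannot be told apart.

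Tlr2, the shared partner of the lipopeptide receptors, was at 97.42, 87.04 and 86.68 CPM in the resting siControl libraries and at 477.9, 424.2 and 418.2 CPM after LPS. Every LPS-treated library was far above every resting library, a 4.87-fold rise (log2 fold change 2.28, SE 0.07, adjusted p = 7e-17). Tlr1 was at 41.16, 42.05 and 39.67 CPM and then at 164.3, 149.2 and 170.3 CPM, a 3.94-fold rise (log2 fold change 1.98, SE 0.06, adjusted p = 2.8e-17). Tlr6, the alternative partner of TLR2, rose less, from 23.16, 20.92 and 21.9 CPM to 38.27, 35.09 and 35.77 CPM (1.65-fold, SE 0.07 on the log2 scale, adjusted p = 8e-09). The ratio of Tlr1 to Tlr6 per kb was 2.08 ± 0.14 in resting and 4.94 ± 0.312 in LPS-treated siControl cells. Tlr1 and Tlr6 are neighbours on chromosome 5 (GRCm38, 64924679 to 64933563 and 64952031 to 64960097, both on the minus strand), and 454 stretches of 50 bases occur in the exons of both. These stretches make up 13.6% of those in Tlr1 and 12.3% of those in Tlr6, and the split of reads from them between the 2 genes is uncertain.

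The promoter of Tlr2 is shown because this receptor had the largest rise of the 10 with LPS in both siRNA groups. It is the 300-base window from 250 bases before to 50 bases after the start of the transcript in the RefSeq table for GRCm38.p6, chr3:83841559-83841858 on the minus strand, printed 5′ to 3′. Capitals mark the letters GGGNNTTCC, a kappaB-like motif searched on both strands, which is found here as 2 overlapping matches on opposite strands. Windows of 7 members were in the table (Tlr1, Tlr2, Tlr3, Tlr6, Tlr8, Tlr9 and Tlr13, with 2 windows each for Tlr1 and Tlr6), and Tlr2 was the 1 window of the 9 with this motif. Of the 32851 windows searched, 5.82% held it. A match is a description of letters and not a site of binding.
Tlr2 promoter: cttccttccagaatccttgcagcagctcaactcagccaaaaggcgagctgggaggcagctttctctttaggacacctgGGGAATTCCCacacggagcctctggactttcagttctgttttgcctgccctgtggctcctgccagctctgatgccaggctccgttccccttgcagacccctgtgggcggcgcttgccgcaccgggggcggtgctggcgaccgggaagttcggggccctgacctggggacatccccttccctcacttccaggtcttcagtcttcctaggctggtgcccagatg

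Tlr4 (chromosome 4, 66827584 to 66930284, plus strand), the LPS receptor itself, rose the least of the surface receptors. It was at 121.4, 113.7 and 112.7 CPM in resting and 143, 147.4 and 151.8 CPM in LPS-treated siControl libraries, with no overlap and a 1.27-fold difference (log2 fold change 0.35, SE 0.05, adjusted p = 6.3e-06). Over the 20 alternatives, the log2 fold change of Tlr4 ranged from 0.15 to 0.38, with adjusted p-values up to 0.016. Cd14 was at 452.2, 457.1 and 486.5 CPM at rest and at 1298, 1402 and 1319 CPM after LPS. That is a 2.88-fold rise (log2 fold change 1.53, SE 0.07, adjusted p = 6.5e-14). The ratio of Tlr2 to Tlr4 per kb was 1.44 in resting and 5.52 in LPS-treated siControl cells.

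Among the endosomal receptors, Tlr3 rose 1.84-fold (log2 fold change 0.88, SE 0.07, adjusted p = 3.2e-10). Its libraries stood at 18.31, 21.14 and 20.89 CPM at rest and 34.63, 37.07 and 39.38 CPM after LPS. An exon of Tlr3 (chromosome 8, 45395665 to 45411080, minus strand) overlaps the gene Gm45542 on the opposite strand, and reads of the 2 genes cannot be told apart if strand was not used in counting. Tlr9 was at 75.28, 53.59 and 60.48 CPM at rest and 31.02, 32.56 and 33.86 CPM after LPS, with no overlap. It fell to 51.5% of the resting level (log2 fold change -0.96, SE 0.14, adjusted p = 7.4e-05). Tlr13 fell from 429.4, 423.8 and 455 CPM to 229.6, 288.3 and 314.9 CPM, or 63.7% of the resting level (SE 0.09 on the log2 scale, adjusted p = 1.3e-05). Tlr8 fell from 322.6, 297 and 306.1 CPM to 201.1, 227.9 and 256.7 CPM, or 74.1% (SE 0.07 on the log2 scale, adjusted p = 2.6e-05). Tlr7 was at 368.3, 303.6 and 330.8 CPM at rest and 268.9, 275.9 and 318.5 CPM after LPS. These libraries overlapped, and the call of a fall to 86.1% (log2 fold change -0.22, SE 0.07, adjusted p = 0.012) was lost without resting siControl replicate 1, LPS siControl replicate 1 or LPS siControl replicate 2, with adjusted p-values up to 0.091.

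With siEhd1, the same 6 transcripts rose with LPS, Tlr9 and Tlr13 fell, and Tlr7 and Tlr8 were not called. Over all genes, 32.9% were called higher and 34.0% lower in these cells. Tlr2 rose 6.47-fold (log2 fold change 2.69, SE 0.07, adjusted p = 6.7e-18) and Tlr1 3.26-fold (1.71, SE 0.06, adjusted p = 2.3e-16). Cd14 rose 2.77-fold, Tlr3 2.32-fold, Tlr6 1.55-fold and Tlr4 1.35-fold. Tlr9 fell to 61.2% and Tlr13 to 67.2% of the resting level. The log2 fold change of Tlr8 was 0.01 (95% interval -0.14 to 0.16, adjusted p = 0.88) and that of Tlr7 was -0.04 (-0.19 to 0.11, adjusted p = 0.68). Both values depended on the scaling: with total counts in place of TMM factors, which moves the median of all genes to -0.24 in these cells, Tlr8 was at -0.21 (adjusted p = 0.029) and Tlr7 at -0.26 (adjusted p = 0.0073), about the shift of all genes. The same scaling moves the share of higher genes among those called from 49.2% to 28.6% with siEhd1 and from 50.6% to 32.5% with siControl, where the median of all genes goes to -0.207. Upper quartile factors gave shares of 38.4% and 41.3%.

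**Figure D2:**
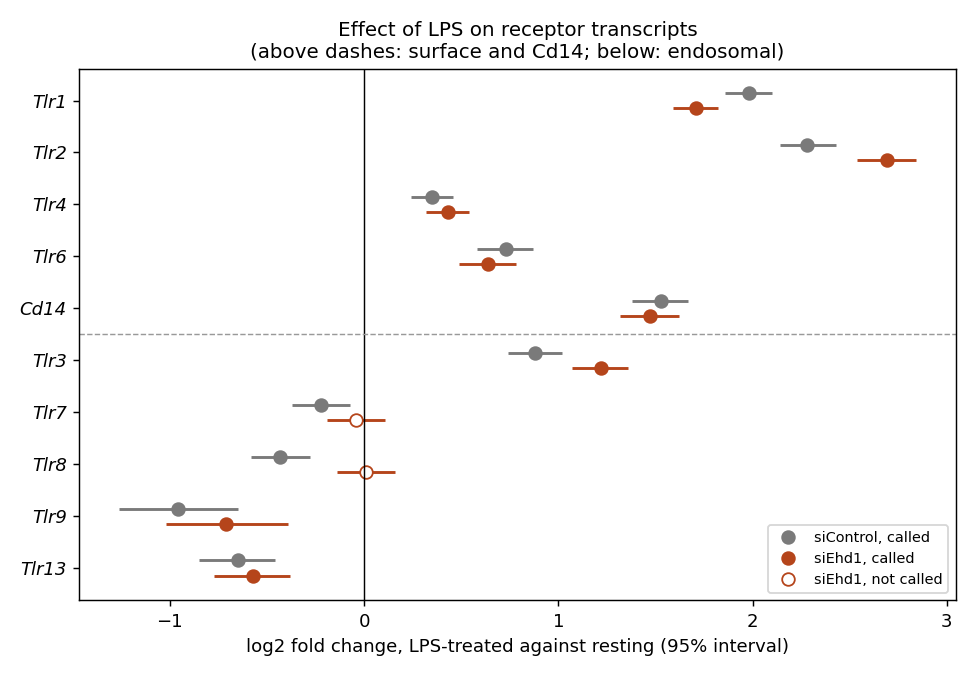
Log2 fold change of LPS-treated against resting cells for each transcript (points, with 95% intervals), with siControl and with siEhd1. The surface receptors and Cd14, above the dashed line, lie between 0.35 and 2.69, and the endosomal receptors, below it, lie between -0.96 and 0.01 except Tlr3 at 0.88 and 1.22.

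The shift between receptor classes was also described as the endosomal share of the summed level of the 9 Toll-like receptors per kb, without Cd14. It was 80.8%, 80.3% and 81.5% in the resting siControl libraries and 43.9%, 49.2% and 51.4% after LPS. With siEhd1 it was 79.0%, 79.9% and 79.0% at rest and 48.1%, 46.2% and 45.8% after LPS. Resting and LPS-treated libraries did not overlap with either siRNA. With 3 libraries a group an exact permutation test cannot go below p = 0.10, and none is given. The surface sum was 69.0 ± 3.22 CPM per kb at rest and 231 ± 11.7 CPM per kb after LPS with siControl, of which Tlr2 made the larger part, while the endosomal sum was 291 ± 15.1 and 215 ± 24.6 CPM per kb. With siEhd1 the surface sums were 64.1 ± 2.34 and 242 ± 10.2 CPM per kb, and the endosomal sums were 246 ± 14.6 and 212 ± 2.33 CPM per kb. At rest the siEhd1 share was lower than the siControl share in all 3 libraries, at 79.3% ± 0.52 against 80.9% ± 0.603 (SD, n = 3), and after LPS the libraries of the 2 siRNA groups overlapped.

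**Figure D3:**
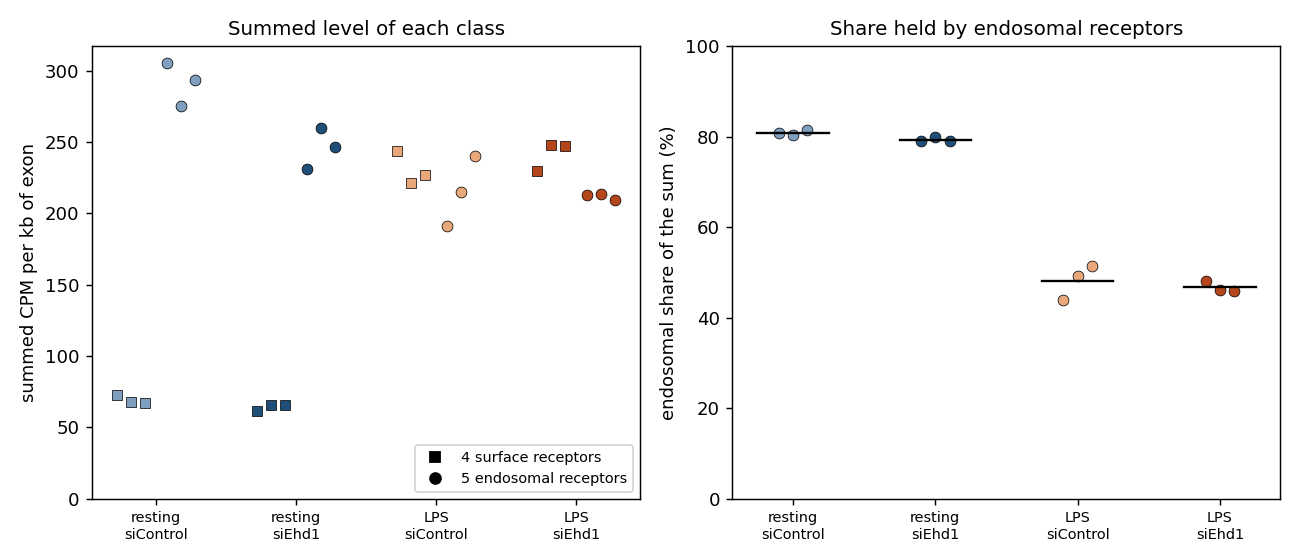
Endosomal share (percent) of the summed level per kb of the 9 Toll-like receptors in each library, by group, with group means. The share lies between 79.0% and 81.5% in resting libraries and between 43.9% and 51.4% after LPS.

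In resting cells, siEhd1 and siControl were compared to ask how the repertoire differs with siEhd1 before stimulation. Tlr1 rose, and Tlr2, Tlr4, Cd14, Tlr3, Tlr7, Tlr8 and Tlr9 fell, each by less than 1 log2 unit. Tlr6 and Tlr13 were not called. The 1 transcript called higher and the 7 called lower stand beside 14.0% of all tested genes called higher and 14.2% lower. The 5 endosomal receptors had a median log2 fold change of -0.33 with 4 called lower, the 4 surface receptors had a median of -0.08 with 1 called higher and 2 lower, and all tested genes had a median of -0.02. Calls for Tlr1, Tlr2, Tlr3 and Tlr8 held under each of the 21 alternative settings tried, and those for Tlr4, Cd14, Tlr7 and Tlr9 did not.

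Tlr8 had the largest fall of the 10. Its resting siEhd1 libraries stood at 214.7, 241.7 and 235.5 CPM, all below the 297 to 322.6 CPM of siControl, or 74.7% of the control (log2 fold change -0.42, SE 0.07, adjusted p = 0.00022). The Tlr8 promoter is printed for this reason, as chrX:167264280-167264579 on the minus strand, 5′ to 3′, from the same RefSeq table and window. Capitals mark a match on the opposite strand to the letters GAAANNGAA, a core of the interferon-stimulated response element. Of the 9 member windows, this one and 1 of the Tlr6 windows held the motif, beside 8.56% of all windows searched.
Tlr8 promoter: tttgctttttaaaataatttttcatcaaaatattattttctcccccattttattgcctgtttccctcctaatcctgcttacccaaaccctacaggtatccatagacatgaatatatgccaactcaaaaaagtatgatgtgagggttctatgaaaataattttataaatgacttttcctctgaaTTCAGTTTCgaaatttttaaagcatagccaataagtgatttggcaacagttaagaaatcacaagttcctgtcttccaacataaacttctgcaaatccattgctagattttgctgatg

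Tlr3 was at 15.85, 16.48 and 15.71 CPM with siEhd1, below the 18.31 to 21.14 CPM of siControl and at 79.6% of it (log2 fold change -0.33, SE 0.07, adjusted p = 0.0019). Tlr7 was at 257.8, 286.7 and 287.1 CPM, below the 303.6 to 368.3 CPM of siControl, or 82.9% (log2 fold change -0.27, SE 0.07, adjusted p = 0.0082). That call was lost without replicate 1 of either resting group, with adjusted p-values up to 0.061. Tlr9 was at 41, 46.67 and 55.69 CPM, which overlaps the 53.59 to 75.28 CPM of siControl, in which replicate 1 was the highest. Its difference of -0.40 (SE 0.13, adjusted p = 0.044) passed the threshold in the test as described and in 6 of the 21 alternatives, and was -0.26 without resting siControl replicate 1. Tlr13 was at 400.1, 455.1 and 395 CPM, which overlaps the 423.8 to 455 CPM of siControl, with a log2 fold change of -0.07 (95% interval -0.26 to 0.13).

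On the surface, Tlr1 was at 51.64, 50 and 50.03 CPM with siEhd1, above the 39.67 to 42.05 CPM of siControl, or 123% of it (log2 fold change 0.30, SE 0.06, adjusted p = 0.00055). Its partner Tlr2 moved the other way, to 67.65, 75.54 and 77.79 CPM, below the 86.68 to 97.42 CPM of siControl and at 81.5% of it (log2 fold change -0.30, SE 0.07, adjusted p = 0.0033). Tlr6 was at 22.59, 22.89 and 20.52 CPM, level with the control (log2 fold change 0.00, 95% interval -0.15 to 0.15). The ratio of Tlr1 to Tlr6 per kb was 2.57 ± 0.146 with siEhd1 against 2.08 ± 0.14 with siControl.

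The transcripts of TLR4 and of CD14, which hands LPS to it, were lower by smaller amounts. Tlr4 was at 96.82, 106.8 and 106.7 CPM with siEhd1, below the 112.7 to 121.4 CPM of siControl, or 89.2% (log2 fold change -0.16, SE 0.05, adjusted p = 0.024). Cd14 was at 375.9, 445.4 and 393.9 CPM, below the 452.2 to 486.5 CPM of siControl, or 87.1% (log2 fold change -0.20, SE 0.07, adjusted p = 0.036). The Tlr4 call was lost with total counts in place of TMM factors (adjusted p = 0.057) and with replicate number as a block within each table (adjusted p = 0.065). Without resting siControl replicate 1 or resting siEhd1 replicate 1 neither Tlr4 nor Cd14 was called, and the Cd14 call was also lost without resting siControl replicates 2 or 3, resting siEhd1 replicate 3 or LPS siEhd1 replicate 1. Adjusted p-values ranged from 0.019 to 0.15 for Tlr4 and from 0.011 to 0.19 for Cd14 over the alternatives. Without replicate 1 of either resting group, 4 of the 10 transcripts were called in place of 8. Calls over all genes also fell, from 3432 to 2349 without siControl replicate 1 and to 2466 without siEhd1 replicate 1.

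The letters GCCTTGT were searched in the 3′ untranslated regions because they were already known to be frequent in genes lower with siEhd1 in these data. Among the 10 transcripts Tlr4 had the motif, at 1 position, 1025 bases after the stop codon in the GENCODE annotation of GRCm38. Of the resting genes called lower, 28.7% held the motif, against 9.07% of those called higher and 14.7% of all tested genes with an annotated region. Of the genes called for siEhd1 after LPS, 50.8% of those lower and 10.8% of those higher held it. Of the 7 transcripts lower at rest, the 6 other than Tlr4 were without these letters in the annotated regions. Whether the receptor differences with siEhd1 came from lower Ehd1 or from other effects of the siRNA was not tested. The site is shown with the motif in capitals.
Tlr4 site: tctggacatGCCTTGTgagatggat

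In LPS-treated cells, the same comparison asks whether the receptors differ with siEhd1 during activation. Cd14 fell, and 0 of the 9 Toll-like receptors were called by edgeR, DESeq2 or limma-voom, with 0 at an unadjusted p under 0.05 in edgeR. Over all genes, 4.44% were called higher and 4.10% lower, so that 1 call among 10 transcripts is near the background. Cd14 was at 1115, 1218 and 1030 CPM with siEhd1, below the 1298 to 1402 CPM of siControl, or 83.7% of it (log2 fold change -0.26, SE 0.07, adjusted p = 0.022). The call was lost without LPS siControl replicate 2 or without LPS siEhd1 replicate 1 or 3, with adjusted p-values up to 0.13. Leaving out LPS siEhd1 replicate 1 also lowered the count over all genes from 1039 to 607.

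The intervals of the receptors after LPS show which differences the spread between these libraries does not exclude, and that spread may be purely technical. Tlr2 was at 447, 496.8 and 485.6 CPM with siEhd1, overlapping siControl, with a log2 fold change of 0.11 (95% interval -0.02 to 0.25, adjusted p = 0.33). Tlr1 was at 161.8, 161.3 and 172 CPM (0.03, -0.08 to 0.14), and Tlr6 at 31.94, 34.47 and 36.31 CPM (-0.09, -0.23 to 0.05). Tlr4 was at 136.7, 142.5 and 138.2 CPM, just below the 143 to 151.8 CPM of siControl in every library, yet the difference of -0.08 (-0.19 to 0.03) did not pass the test (adjusted p = 0.39). The endosomal receptors lay close to their controls and overlapped them. Tlr3 stood at 36.85 to 37.69 CPM (log2 fold change 0.01, -0.13 to 0.14), Tlr8 at 224.4 to 242 CPM (0.03, -0.12 to 0.18) and Tlr13 at 269.2 to 290.9 CPM (0.01, -0.18 to 0.21). Tlr7 at 267.9 to 271.8 CPM (-0.09, -0.24 to 0.06) and Tlr9 at 27.12 to 32.68 CPM (-0.15, -0.47 to 0.17) had values below 0 that did not pass.

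**Figure D4:**
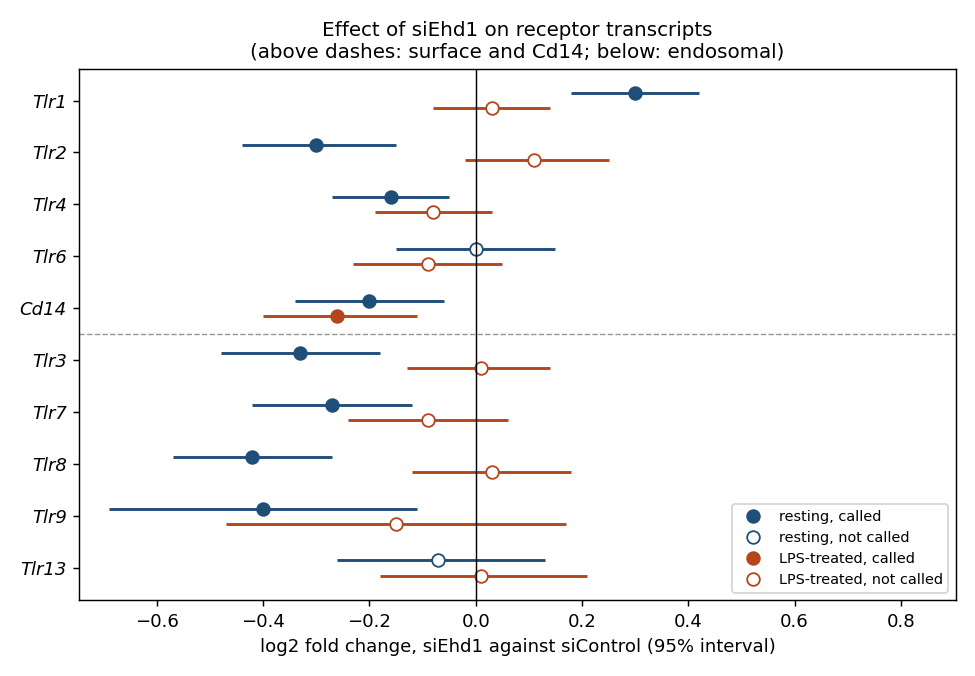
Log2 fold change of siEhd1 against siControl for each transcript (points, with 95% intervals) in resting and in LPS-treated cells, with filled points for an adjusted p under 0.05. In resting cells Tlr1 is at 0.30 and 7 transcripts lie between -0.42 and -0.16, and after LPS Cd14 at -0.26 is the filled point.

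A call in resting cells and none after LPS does not show that the effects differ, so the difference itself was tested (LPS minus resting). It passed for Tlr2, at 0.41 on the log2 scale (SE 0.10, adjusted p = 0.012), for Tlr8 at 0.45 (SE 0.10, adjusted p = 0.011), for Tlr3 at 0.33 (SE 0.10, adjusted p = 0.045) and for Tlr1 at -0.27 (SE 0.08, adjusted p = 0.045). Thus 3 transcripts had a higher and 1 a lower siEhd1 effect after LPS, beside 3.12% and 2.93% of all genes. The call of Tlr8 held in every alternative tried, with adjusted p-values from 0.00048 to 0.041. The call of Tlr2 was lost without resting siEhd1 replicate 1 (adjusted p = 0.052) and with replicate number as a block within each table (adjusted p = 0.053). Those of Tlr1 and Tlr3 were lost in 13 and 17 of the 20 alternatives. For Cd14 the difference was -0.06 (adjusted p = 0.82) and for Tlr4 0.08 (adjusted p = 0.61), and Tlr7, at 0.18 (adjusted p = 0.35), Tlr9, at 0.25 (adjusted p = 0.55), Tlr6, at -0.09, and Tlr13, at 0.08, did not pass either. With total counts in place of TMM factors, higher values made up 41.4% of all genes called for this difference in place of 51.6%. The comparisons share their control libraries, so the values above are given side by side and not as independent results.

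Genes that act with the receptors were read from lists by role, each given with its median log2 fold change. For all tested genes that median was -0.02 for siEhd1 at rest, 0 for siEhd1 after LPS and -0.01 for LPS in siControl cells. The list medians for siEhd1 at rest were 0.03 for co-receptors, 0.07 for folding and trafficking, -0.10 for proteases, -0.10 for adaptors and -0.10 for negative regulators, and after LPS they were 0.05, 0.02, 0.10, -0.07 and -0.10. For LPS in siControl cells they were 0.05, 0.37, -0.18, 0.08 and 0.16, and 0.77 for interferon genes. Surface co-receptors and ligand delivery held 4 tested genes. At rest 1 of them was lower with siEhd1, against 14.2% of all tested genes: Ly86, which encodes MD-1, the partner of the TLR4-like protein RP105, was at 79.31 CPM in siControl and 62.2 CPM in siEhd1 cells (log2 fold change -0.35, SE 0.06, adjusted p = 0.00014). After LPS 0 were called by any of the 3 tools, with 0 at an unadjusted p under 0.05. Of all tested genes, edgeR called 4.44% higher and 4.10% lower there. With LPS in siControl cells Ly96, which encodes MD-2, rose from 6.73 to 10.2 CPM (log2 fold change 0.60, adjusted p = 9.8e-05), and Cd180, which encodes RP105, fell from 266.4 to 137.2 CPM (-0.96, adjusted p = 0.00016).

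Of 7 genes for folding and trafficking of the receptors, 3 were lower with siEhd1 at rest in edgeR, against 14.2% of all tested genes, and 2 of the 7 were called by DESeq2. Unc93b1, the chaperone that takes the nucleic acid receptors to endosomes, went from 893.9 to 790 CPM (log2 fold change -0.18, adjusted p = 0.025). Slc15a4, an endolysosomal transporter needed for TLR7 and TLR9 signalling, had a log2 fold change of -0.16 (adjusted p = 0.032) and Cnpy4 one of -0.22 (adjusted p = 0.042). After LPS 0 of the 7 were called for siEhd1 by any of the 3 tools, with 1 at an unadjusted p under 0.05 in edgeR. Of all tested genes, edgeR called 4.44% higher and 4.10% lower there. With LPS in siControl cells 5 of the 7 rose and 1 fell, against 34.8% and 34.0% of all tested genes. Hsp90b1, the folding chaperone gp96, rose from 555.7 to 1083 CPM (0.96, adjusted p = 2.6e-11). Cnpy3, its co-chaperone, rose from 96.4 to 157 CPM (0.70, adjusted p = 5e-10). Slc15a4 fell from 172.4 to 82.28 CPM (-1.07, adjusted p = 4.8e-13). Unc93b1 was at 856.7 CPM after LPS and was not called.

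Of 5 proteases that cleave endosomal receptors, 1 was lower with siEhd1 at rest, against 14.2% of all tested genes. It was Ctss (cathepsin S), with a log2 fold change of -0.17 (adjusted p = 0.034). After LPS, 2 of the 5 were higher with siEhd1, against 4.44% of all tested genes. They were Ctsk (0.47, SE 0.10, adjusted p = 0.0046) and Ctsl (0.53, SE 0.11, adjusted p = 0.0048). Ctsl, the lysosomal cathepsin L, went from 3750 CPM in siControl to 5429 CPM in siEhd1 cells. With LPS in siControl cells 2 of the 5 proteases rose and 3 fell, against 34.8% and 34.0% of all tested genes. Ctsl was at 0.71, Lgmn, asparagine endopeptidase, at 0.21 and Ctsk at -0.35.

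Of 12 adaptors and proximal kinases, 2 were lower with siEhd1 at rest and 1 after LPS in edgeR, against 14.2% and 4.10% of all tested genes, and DESeq2 called 1 at rest. Irak2, a kinase-like component of the MyD88 signalling complex, was lower with siEhd1 both at rest and after LPS. It was at 90.76 and 70.95 CPM at rest (log2 fold change -0.36, SE 0.05, adjusted p = 2.9e-05) and at 101.8 and 81.11 CPM after LPS (-0.33, SE 0.05, adjusted p = 0.00036). Irak1 was lower at rest (-0.14, adjusted p = 0.045), and the other 10 genes at rest and 11 after LPS were not called. With LPS in siControl cells 4 of the 12 rose and 3 fell, against 34.8% and 34.0% of all tested genes. Among them were Myd88, the adaptor of most Toll-like receptors, at 1.25 (adjusted p = 7.7e-14) and Traf3 at 0.76 (adjusted p = 4.8e-11). Sarm1 was at -2.89 (SE 0.38, adjusted p = 8.6e-07), from only 1.36 CPM at rest.

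Of 8 negative regulators, 2 were higher with siEhd1 at rest in edgeR, against 14.0% of all tested genes, and 1 was called by DESeq2 and 1 by limma-voom. Il1rl1, a receptor that sequesters MyD88, was at 2.68 CPM in siControl and 5.26 CPM in siEhd1 cells (log2 fold change 0.97, SE 0.21, adjusted p = 0.002), and Tnfaip3, the ubiquitin-editing enzyme A20, was at 28.46 and 32.34 CPM (0.18, adjusted p = 0.044). The siEhd1 effect on Tnfaip3 was lower after LPS than at rest by 0.34 (SE 0.09, adjusted p = 0.024). After LPS 1 of the 8 was lower with siEhd1, against 4.10% of all tested genes. It was Socs1, at 18.85 CPM beside 23.76 CPM in siControl cells (-0.33, SE 0.09, adjusted p = 0.021). LPS raised 4 of the 8 and lowered 3 in siControl cells, against 34.8% and 34.0% of all tested genes. Irak3, an inhibitory kinase-like protein, rose from 29.73 to 283.8 CPM (3.25, adjusted p = 3.5e-19), with Tnfaip3 at 2.24 and Socs1 at 4.49.

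Of 10 tested interferon regulatory and signalling genes, 6 were lower with siEhd1 at rest and 0 higher, against 14.2% and 14.0% of all tested genes. The list median was -0.22 at rest and -0.05 after LPS. Irf7, the transcription factor downstream of TLR7 and TLR9, was at 326.2 CPM in siControl and 176.8 CPM in siEhd1 cells (log2 fold change -0.88, SE 0.07, adjusted p = 1.3e-08). Stat2 was at 202.4 and 133.3 CPM (-0.60, SE 0.07, adjusted p = 1.1e-06). After LPS 0 of the 10 were called by edgeR, DESeq2 or limma-voom, with 3 at an unadjusted p under 0.05 in edgeR. Of all tested genes, edgeR called 4.44% higher and 4.10% lower in that comparison. The difference between the effects passed for 4 of the 10 interferon genes, against 3.12% of all tested genes called higher and 2.93% lower. Among the 4 were Irf7 at 0.81 (adjusted p = 1.7e-05) and Stat2 at 0.64 (adjusted p = 0.00024). LPS in siControl cells raised 7 and lowered 2 of the 10, against 34.8% and 34.0% of all tested genes. The log2 fold change was 2.90 for Irf7 and 1.47 for Ifnar1, which encodes a chain of the type I interferon receptor. Ifnb1 had at most 10 counts in any library and was not tested.

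The genes with the most similar pattern were taken as the 2 with the highest Pearson correlation of log2 CPM over the 12 libraries. These correlations rest largely on the same 4 groups and are descriptions. For the transcripts that rose with LPS they were Gbgt1 (0.999) and 6330416G13Rik (0.998) for Tlr2, Bst1 (0.997) and Fam102b (0.997) for Tlr1, Pik3r6 (0.992) and Nadk (0.991) for Tlr6, and Klf3 (0.991) and Sash1 (0.989) for Tlr4. Those nearest Cd14 were Sipa1l1 (0.997) and Rab11fip1 (0.996), and those nearest Tlr3 were Pde7b (0.998) and Herc6 (0.995). Among the receptors that fell, Tlr13 was followed by Apbb2 (0.993) and Hip1 (0.988), and Tlr9 by Rftn1 (0.983) and Gna12 (0.978). The values were lower for Tlr8, with Ep300 (0.951) and Trim25 (0.95), and for Tlr7, with Asxl2 (0.933) and Kdm6a (0.931).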

How the data were processed

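Resting and LPS-treated libraries came as separate tables of raw read counts per gene, as the authors deposited them. The submitters' processing notes name FastQC 0.10.1, Trim Galore 0.6.3 with cutadapt for trimming, STAR 2.7.6a, featureCounts 2.20.0, R 4.4.2 and DESeq2 1.46.0, with mm10 as build. Not given in the sources used here are the annotation, strand setting, handling of multi-mapping reads, LPS dose and time, and siRNA sequences. Columns were matched to samples by library name, with 0 columns unused.

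Counts entered edgeR 4.0.16 (with limma 3.58.1, under R 4.3.3) after filterByExpr (minimum count 10, minimum total 15), which passed 12164 of 17270 genes with a count. The removed genes held at most 0.039% of a library. All 12 libraries entered a single robust quasi-likelihood model with TMM factors and a coefficient for each group, which left 8 residual degrees of freedom; the biological coefficient of variation was 0.0588. The 5 contrasts were adjusted by Benjamini-Hochberg over all 12164 genes with a threshold of 0.05, and the SE is the absolute log2 fold change over the square root of F. The procedure was tested on counts simulated for the resting siEhd1 comparison, with nonzero effects larger than those of the members there. Smaller nonzero effects and effects in the other contrasts were not simulated. Alternatives were other scaling, no filter, DESeq2 1.42.0, limma-voom, fits of 2 groups, replicate blocks, each library left out, and the longest transcript as length.

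The members and lists were chosen with earlier results of these data known. The genes named are the 10 members and Ehd1, up to 3 called genes per list and comparison with the smallest p, and the 2 genes most correlated with each member; 1 listed gene that this rule names is not reported here. Levels per kb use merged exons of the GENCODE annotation of GRCm38, the assembly that mm10 is built on, and promoter sequences are from RefSeq.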

Additional observations from a re-analysis of the deposited data

Results flagged for a closer look

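The test of the difference between the siEhd1 effects in LPS-treated and resting cells passed for 4 of the 10 transcripts (edgeR, LPS minus resting, log2 scale), beside 3.12% of all genes called higher and 2.93% lower. The values were 0.41 for Tlr2, 0.45 for Tlr8, 0.33 for Tlr3 and -0.27 for Tlr1. With any 1 library left out, 1 to 3 of the 10 transcripts passed. Tlr1 and Tlr3 lost the call in 13 and 17 of the 20 alternatives, Tlr2 in 2, and Tlr8 in 0. At rest all 3 siEhd1 libraries lay below all 3 siControl libraries for Tlr2, Tlr8 and Tlr3, and above them for Tlr1. After LPS the libraries of the 2 siRNA groups overlapped for all 4. The calls came from these same libraries, so their positions are a description and no separate support. The share of all genes with such a separation was not computed.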

How the results depend on the processing

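Over 21 alternatives, 936 of 1020 values for the 10 transcripts kept their direction and side of the threshold. Another 65 lost the call, 1 gained it with the same sign and 18 changed sign. Among these 18, the LPS effect on Tlr8 in siEhd1 cells with total counts also passed the threshold (edgeR adjusted p = 0.029). Transcripts called for the difference of siEhd1 effects fell from 4 to 2 with limma-voom, to 2 with a replicate block over all libraries and to 1 with a replicate block within each table. The block changed resting calls from 8 to 7 and 6 and kept 1 call after LPS. Correlations of deviations for siEhd1 and siControl libraries of the same number ran from -0.167 to -0.063 at rest and from -0.045 to 0.185 after LPS. With deviations from means of 3 libraries, this check cannot exclude a pairing by number. With the longest transcript as length, the endosomal share was 79.7% with siControl and 78.1% with siEhd1 at rest.

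Leaving out each library gave 4 to 8 resting, 0 to 1 LPS and 1 to 3 difference calls among the 10 transcripts. Over all genes it gave 2349 to 3725 in place of 3432 at rest and 607 to 1100 in place of 1039 after LPS. For the difference it gave 453 to 783 in place of 735. The lowest of these were without resting siEhd1 replicate 1 (453) and resting siControl replicate 1 (473). The sign changed for uncalled values near 0, which ranged over these fits as follows: Tlr6 at rest from -0.03 to 0.05, and after LPS Tlr1 from -0.02 to 0.08, Tlr3 from -0.04 to 0.06, Tlr8 from -0.06 to 0.12 and Tlr13 from -0.11 to 0.12. The difference ranged from -0.12 to 0.02 for Cd14 and from -0.04 to 0.18 for Tlr13. The LPS effect on Tlr8 in siEhd1 cells ranged from -0.04 to 0.05, and was -0.09 with upper quartile factors and -0.21 with total counts, where it was called. Apart from the scaling and left-out libraries, the cause of these changes was not tested. With 3 libraries a group, sizes within a printed 95% interval are not excluded by these data.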
